A study of Mus musculus with 2 samples.

Results

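The genes examined encode proteins that build and join the microvilli of the intestinal brush border, the apical surface of absorptive enterocytes. All 10 named genes (Vil1, Ezr, Espn, Eps8, Pls1, Myo1a, Myo7b, Cdhr2, Cdhr5 and Ush1c) were found, by matching the single gene symbol that the platform annotation gives a probe set. They were read by 13 of the 45101 probe sets of the array and are 10 of 18194 genes that have at least 1 such probe set. RNA came from scrapings of jejunum, the stretch of mouse small intestine between duodenum and ileum. 1 array held RNA of wild-type mice and 1 held RNA of mice labelled XBP1 knock-out, and each RNA was pooled from 3 mice before hybridisation to an Affymetrix Mouse Genome 430 2.0 array. XBP1 is a transcription factor of the unfolded protein response. The comparison asks how microvillus transcripts differ between the knock-out-labelled and the wild-type pool. The labels give no strain, age, sex, allele or deleting agent for either pool, and no treatment. The published work under the series' title describes deletion in the intestinal epithelium by a Cre recombinase under regulatory sequences of villin, the product of Vil1; the labels of these samples do not state it.

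A microvillus is a finger of plasma membrane around a core of parallel actin filaments. Bundling proteins (villin, plastin-1 and espin, with EPS8 at the tip) hold the filaments together, and ezrin and the motor myosin-1a tie the core to the membrane. At the tips, the protocadherins CDHR2 and CDHR5 reach across to neighbouring microvilli and bind each other, and inside the cell they are anchored by a complex of the scaffold harmonin (Ush1c), ANKS4B and the motor myosin-7b. This tip-link system packs microvilli into the regular array of the mature brush border.

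The 2 protocadherin genes had the lowest ratios of the 10 genes. In the knock-out-labelled pool Cdhr5 signal was 2.20-fold and Cdhr2 signal 1.88-fold lower, whereas the actin core genes differed less and Eps8 was near equal. Among the 10 genes, 9 had a log2 ratio below 0, against 60.2% of all measured genes at the scaling used here. This count depended on the scaling and was 6 after quantile normalization or loess, 5 with labelling spikes and 2 with hybridisation spikes made equal. With these spikes the zero line moved for all genes, whose median was 0.20 with labelling and 0.62 with hybridisation spikes. Below that all-gene median lay 9 and 8 of the 10 genes, and 6 after quantile normalization or loess. Of the 10, 1, Cdhr5, was at least 2-fold lower, against 5.08%. Cdhr2 and Cdhr5 were the 2 members at least 1.5-fold lower, a threshold that 16.3% of measured genes passed. None, 0 of 10, was at least 2-fold higher, against 2.25%. The median log2 ratio of the 10 genes was -0.34, beside -0.11 for 12826 measured genes. With 1 array per pool none of these differences has a replicate check, and no p-value can be given. A technical yardstick is how far probe sets for 1 gene differ in ratio: their pooled SD was 0.30, from 3412 genes with several probe sets at over 2 times the signal floor on both arrays, and it holds no variation between mice.

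Signals are given in array units after both arrays were brought to a common 75th percentile, and a ratio is the knock-out-labelled over the wild-type signal on the log2 scale. A gene is called measured when it exceeded a floor of 68.1 units, the median of all probe sets, on at least 1 array. The probe sets that stand for the 10 genes lay at least 36.5 times above this floor on both arrays, so that no member was lost to it. Whether fewer enterocytes or less RNA per enterocyte lay behind a lower signal cannot be told apart in RNA from whole scrapings. Of non-control probe sets, 52.7% exceeded the floor on the wild-type array and 47.3% on the other. The 4 probe sets of Xbp1 itself had log2 ratios from -0.26 to 0.06. Where they lie relative to the deleted part is not given in the sources used here, so they check neither label.

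**Figure D1:**
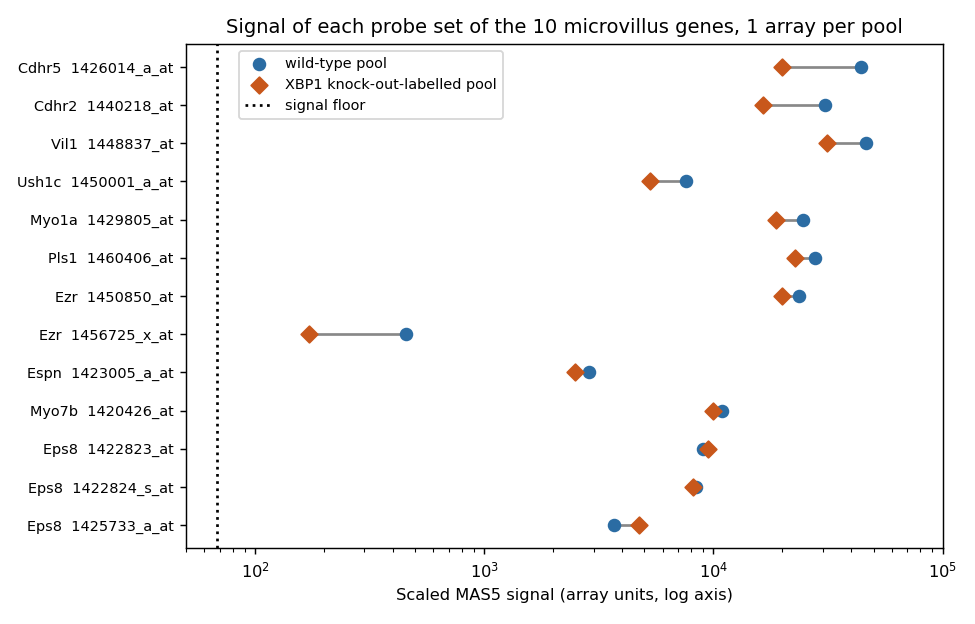
Scaled MAS5 signal (array units, log axis) of each of the 13 probe sets in the wild-type pool (circles) and the knock-out-labelled pool (diamonds), with the signal floor of 68.1 as a dotted line. Each point is 1 array, so there are no error bars, and signals of different probe sets are not comparable with each other. The widest gaps among the probe sets used for the genes are those of Cdhr5 and Cdhr2, and the dim second probe set of Ezr has a wider one.

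The tip-link protocadherins and their anchoring proteins are described first. Cdhr5, the mucin-like protocadherin, had 43912 units in wild-type and 19959 in knock-out-labelled RNA (probe set 1426014_a_at), a log2 ratio of -1.14. Cdhr2, its partner on the facing microvillus, had 30807 and 16389 (1440218_at), a log2 ratio of -0.91. Both differences exceeded the yardstick SD, by more than that of any other member as read by its brightest probe set. Only 3.53% of measured genes had a lower ratio than Cdhr5 and 6.60% a lower one than Cdhr2. Each of the pair rests on 1 probe set, and that of Cdhr5 carries the suffix _a_at, which marks probes shared by several transcripts of the gene.

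Genes for the cytoplasmic side of the tip link had ratios nearer 0. Ush1c, whose product harmonin is the scaffold that holds the protocadherin tails, went from 7587 to 5263 (1450001_a_at), a log2 ratio of -0.53. Myo7b, the motor that carries the complex to the tip, went from 10856 to 9909 (1420426_at), a log2 ratio of -0.13, which is within the yardstick SD of 0. The ratio of Cdhr5 was thus lower than that of Ush1c by 0.61 and lower than that of Myo7b by 1.01 on the log2 scale.

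The actin bundlers spanned a narrower range. Vil1, encoding villin, which bundles, caps and severs actin filaments, had 46087 units in wild-type and 31250 in knock-out-labelled RNA (1448837_at), a log2 ratio of -0.56. Pls1, encoding plastin-1, had 27800 and 22669 (1460406_at), a log2 ratio of -0.29. Espn, encoding espin, had 2854 and 2489 (1423005_a_at), a log2 ratio of -0.20. Pls1 and Espn lay within the yardstick SD of 0, and Vil1 did not. Their median, with Eps8, was -0.25 over 4 bundler genes. It was -0.72 over the 4 tip-link genes in the named set, Cdhr5, Cdhr2, Ush1c and Myo7b. That value depends on which genes are counted. It leaves out the adaptor gene Anks4b (-0.04) and the myosin light chain gene Calml4 (-0.52). Both are outside the named set, were chosen after their values were seen, and had higher ratios than that median.

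Eps8, whose product caps and bundles actin at the microvillus tip, was the only member with a ratio above 0 at the scaling used here. Its brightest probe set, 1422823_at, had 8997 units in wild-type and 9449 in knock-out-labelled RNA, a log2 ratio of 0.07. The other two gave -0.05 (8408 and 8145, 1422824_s_at) and 0.35 (3689 and 4711, 1425733_a_at). The 3 probe sets thus differ in sign and span 0.40, with the highest beyond the yardstick SD.

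Of the proteins that tie the core to the membrane, Myo1a, encoding the motor that bridges actin and the lateral membrane, had 24598 and 18700 units (1429805_at), a log2 ratio of -0.40. Ezr encodes ezrin, which links membrane proteins to actin. Its bright probe set, 1450850_at, went from 23527 to 19884, a log2 ratio of -0.24. Its dim probe set, 1456725_x_at, went from 454 to 172, a log2 ratio of -1.40 that alone would put Ezr past 2-fold. The suffix _x_at marks probes that may also bind other transcripts, and with the median of both probe sets the gene's ratio was -0.82. The extent of the Ezr difference is therefore unsettled.

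Bright genes as a class had lower ratios in the knock-out-labelled pool, and most of the members are bright. For each member, the median ratio of measured genes within 0.5 log2 units of its mean signal was taken as a reference, a comparison added after the data were seen. For Vil1 this reference was -0.47 over 113 genes, so its own ratio lay only 0.09 below it (a difference of -0.09). Pls1, Ezr and Myo7b lay 0.03, 0.05 and 0.03 above their references. Myo1a and Espn differed from theirs by -0.11 and -0.13, and Eps8 by 0.22.

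Cdhr5, Cdhr2 and Ush1c lay further below genes of like signal, by more than the yardstick SD. Cdhr5 differed from its reference of -0.40 by -0.74, and 1.32% of 151 such genes had a lower ratio. Cdhr2 differed from its reference of -0.29 by -0.62, and 4.69% of 192 such genes were lower. Ush1c differed by -0.42, and 14.4% of 627 such genes were lower. Over 1932 measured genes in the members' signal range, the SD of ratios estimated from median deviations was 0.33. All 3 of these genes belong to the tip-link complex, but not all genes of the complex lay low. Its motor gene Myo7b followed the genes of its signal range. Its adaptor gene Anks4b, not a member and chosen after its value was seen, had a ratio of -0.04.

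**Figure D2:**
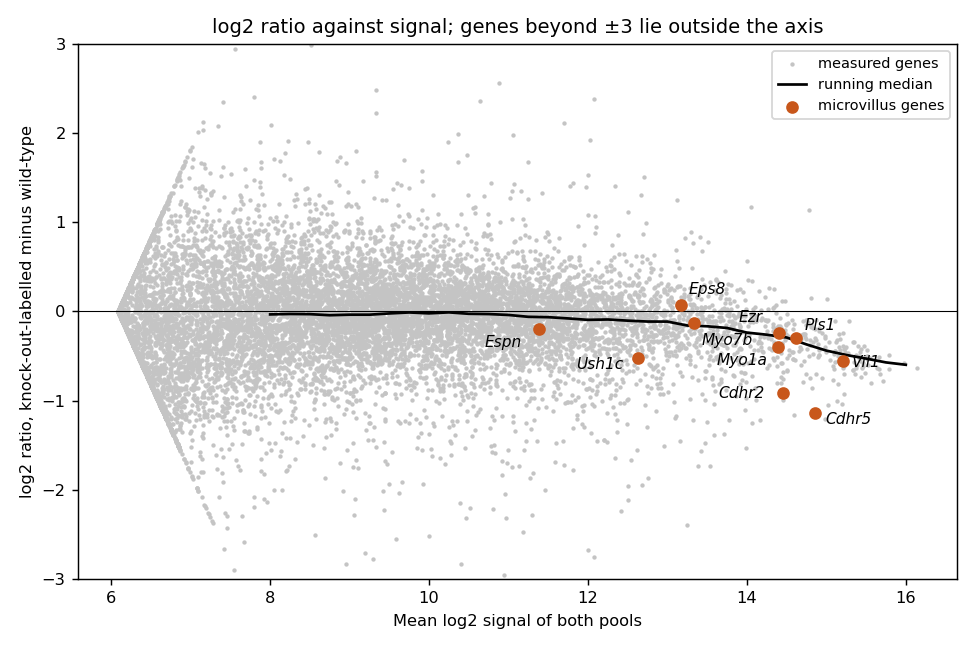
log2 ratio (knock-out-labelled minus wild-type) against the mean log2 signal of both pools for 12826 measured genes (grey), with the 10 microvillus genes in orange and the running median over 1 log2 unit of signal as a black line. The median bends below 0 at the bright end, where Vil1 (-0.56), Pls1, Ezr and Myo1a lie near it and Cdhr5 (-1.14) and Cdhr2 (-0.91) lie under it; genes beyond 3 on either side fall outside the axis.

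The ends of the order held under the other ways of processing the arrays, but most of these could not alter them. In 9 of 9 alternatives that measured both, Cdhr5 was the lowest and Cdhr2 the second lowest member, and in the tenth, which has no probe set for Cdhr5, Cdhr2 was the lowest. Eps8 was the highest in 10 of 10. The ratio of Cdhr5 ran from -1.14 to -0.35 and that of Cdhr2 from -0.91 to -0.13 over the alternatives, below 0 throughout, while Eps8 ran from 0.07 to 0.85. The other 7 members changed sign in at least 1 alternative, all of them when the hybridisation spikes were made equal on both arrays. Scalings that multiply each array by 1 factor cannot change the order of ratios within the arrays. The members lay far above the floor, so the other floors left their ratios unchanged. Taking the median over probe sets could move only Ezr and Eps8, and suffix-free probe sets only left members out. Most of this stability therefore follows from construction. Quantile normalization and loess could reorder the genes, and in both Cdhr5 and Cdhr2 stayed lowest and Eps8 highest.

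**Figure D3:**
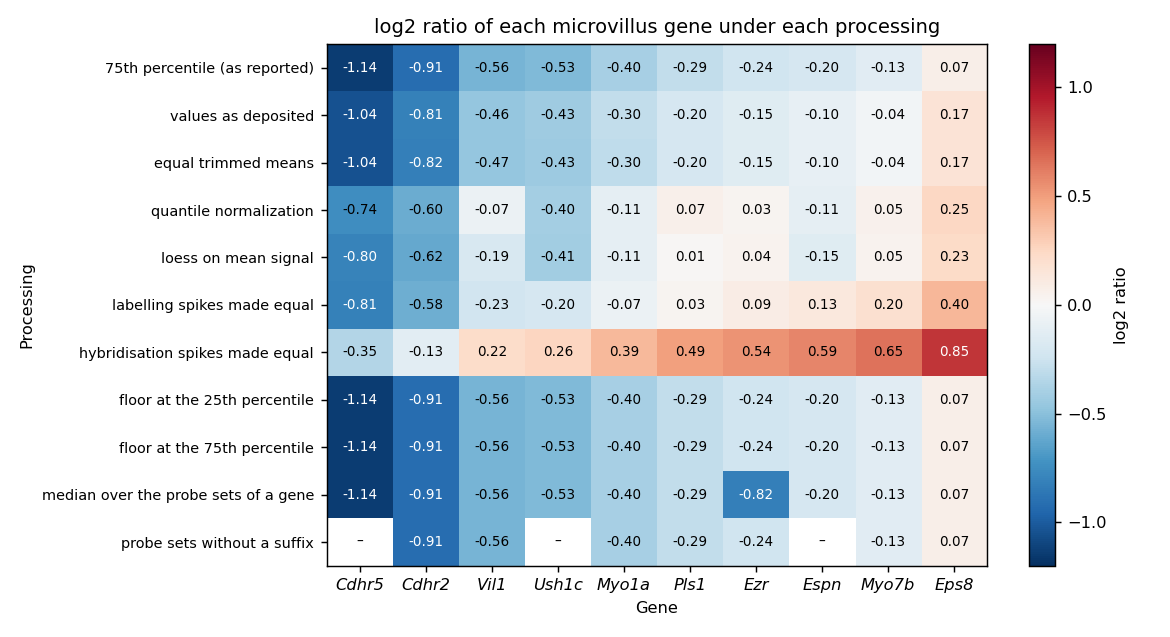
log2 ratio of each of the 10 genes (columns, ordered from lowest to highest as reported) under the reported processing (top row) and 10 alternatives, with blue below 0 and red above 0 and a dash where the gene has no probe set. Cdhr5 and Cdhr2 are below 0 in every row that measured them, Eps8 is above 0 in every row, and the other 7 genes turn positive with the hybridisation spikes made equal.

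The upstream sequences of the 2 protocadherin genes are shown because these genes had the lowest ratios. They are the 250 bases before the annotated start, 5′ to 3′ on the strand of the gene, from RefSeq on GRCm38.p6; Cdhr5 is at chr7:141276787-141277036 on the minus strand and Cdhr2 at chr13:54701213-54701462 on the plus strand. Capitals mark matches to the motifs searched.
Cdhr5: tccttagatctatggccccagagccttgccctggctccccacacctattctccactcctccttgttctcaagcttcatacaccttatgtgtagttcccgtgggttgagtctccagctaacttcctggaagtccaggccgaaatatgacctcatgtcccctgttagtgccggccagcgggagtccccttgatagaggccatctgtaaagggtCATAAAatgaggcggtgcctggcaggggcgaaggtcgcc
Cdhr2: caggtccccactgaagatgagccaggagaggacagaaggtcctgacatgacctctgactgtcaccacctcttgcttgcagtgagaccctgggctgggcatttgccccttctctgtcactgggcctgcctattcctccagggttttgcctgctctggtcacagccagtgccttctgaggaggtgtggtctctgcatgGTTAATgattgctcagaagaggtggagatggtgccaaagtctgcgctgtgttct

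The table of promoters held 8 of the 10 genes, all but Eps8 and Myo7b, with 10 promoters since Espn has 3. In windows of 250 bases before to 50 after the start, 6 motifs were searched on both strands. TGACGTGG, the element bound by XBP1 and ATF6, was in 0 of the 10 promoters and in 0.676% of all 32851. Its shorter parts were likewise in 0 of 10, ACGTGG against 8.31% of all promoters and ACGTCA (which overlaps the element on the other strand) against 7.51%. GTTAAT, part of the site of the intestinal factor HNF1, was found in the Cdhr2 promoter alone, starting 54 bases before the start, and in 7.10% of all promoters. TTTATG, bound by the intestinal factor CDX2, was in the Cdhr5 promoter, 39 bases before the start on the opposite strand, in 1 Espn promoter and in 11.9% of all. CAAAGTCCA, an HNF4 motif, was in 0 of 10 against 0.475%. A match of letters is a description and not evidence of binding.

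Other genes of the brush border were read from lists written from textbook knowledge. Other partners of the tip-link and apical motor system had a median log2 ratio of -0.40, with 6 of 7 measured genes below 0, against 60.2% of all measured genes. Of the 7, 1 was at least 2-fold lower, against 5.08%. That gene was Tmigd1, an adhesion protein of the brush border, which went from 7699 to 3786, a log2 ratio of -1.02. Chosen after their values were seen, the light chain gene of myosin-7b, Calml4, had a ratio of -0.52, and Anks4b, the adaptor between harmonin and myosin-7b, one of -0.04. The genes of the intracellular anchor therefore spread from -0.53 (Ush1c) to -0.04.

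Scaffolds and linkers between membrane and actin had a median of -0.20 over 11 measured genes. Below 0 were 7 of them, near the share of 60.2% of all measured genes. Of the 10 above the floor on both arrays, 0 passed 2-fold. Slc9a3r2 had a ratio of at most -0.97, since its signal in knock-out-labelled RNA did not exceed the floor, so whether it passed 2-fold is not known. The highest, the sialomucin gene Podxl, had 0.57. Chosen after their values were seen, Pdzk1, a scaffold for apical transporters, had -0.93 (15296 and 8056), and Slc9a3r1, the ezrin-binding scaffold of microvilli, had -0.58 (47316 and 31569). Both of these are PDZ-domain proteins of enterocytes. Another PDZ-domain gene of the list, Pdzd3, also chosen after its value was seen, had -0.20 (2517 and 2191).

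Actin bundlers, cappers and their paralogues had a median of -0.15 over 15 measured genes. Below 0 were 10 of them, again near the share of 60.2% of all measured genes. Of the 14 above the floor on both arrays, 0 passed 2-fold, which says little beside 5.08% of all measured genes lower and 2.25% higher. The lowest was Gsn, encoding the severing protein gelsolin of the villin family, at -0.94. The villin-like gene Vill was at the floor in knock-out-labelled RNA, with a ratio of at most -0.58. Avil, a villin-family gene of tuft cells, was highest at 0.89, where Vil1 had -0.56. Again chosen after their values were seen, the EPS8-related genes Eps8l3 and Eps8l2 had -0.71 and 0.80, so that the family lay on both sides of Eps8. The actin genes Actb and Actg1, also chosen after their values were seen, had -0.52 and -0.39.

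The remaining lists lay near the median of all genes. Class 1 myosins other than Myo1a had a median of -0.19 over 6 genes. The 5 with both signals above the floor ran from -0.69 for Myo1g to 0.18 for Myo1c, and Myo1g had only 176 and 109 units. Terminal web and keratin genes, which anchor the microvillus rootlets, had a median of -0.06 over 14, which was above 0 in 6 of 10 alternatives, and the 13 with both signals above the floor ran from -0.98 for the tropomyosin gene Tpm1 to 0.56 for Krt18. Genes of apical vesicle trafficking had a median of -0.10 over 13, from -0.79 for Vps33b to 0.25 for Rab8b. In these 3 lists 0 genes above the floor on both arrays passed 2-fold, against 5.08% of all measured genes lower and 2.25% higher. With shares this small, a count of 0 in lists of this size says little about them. Myo1h and Myh10 were at the floor in knock-out-labelled RNA, with ratios of at most -0.24 and -0.04, so their full difference is not known.

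Markers of cell types in the scraping moved alongside. Markers of mature villus enterocytes, the cells that carry the brush border, had a median ratio of -0.60. Below 0 were 14 of 15 measured genes, against 60.2% of all measured genes. By 2-fold or more, 2 were lower, against 5.08%, and 1 was higher, against 2.25%. Quantile normalization brought the median to 0.00, with 7 genes below and 7 above 0, and loess brought it to -0.16. Treh (trehalase) had -1.46, Lct (lactase) -1.16 and the fructose transporter gene Slc2a5 1.12. The summed signal of this list went from 671823 to 453391. None of the 15 was at the floor, so the labelled tissue carried its defining epithelial markers on both arrays; these lists do not tell jejunum from other parts of the gut. The median of the 10 microvillus genes, -0.34, lay between that of these markers and that of all genes, but after quantile normalization it lay below both.

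Markers of proliferating crypt cells had the opposite sign, with a median of 0.91. Of all measured genes 60.2% lay below 0, whereas 13 of these 13 measured markers lay above 0. At least 2-fold higher were 4 of them, Mcm2, Ccnb2, Aurkb and Bub1 at 1.07 to 1.13, against 2.25% of all measured genes. In wild-type RNA, Aurkb and Bub1 had 93 and 86 units, close to the floor of 68.1. Their summed signal went from 8568 to 12054, with Tyms at the floor on both arrays. Tuft cells also carry microvilli and express Vil1 and Avil. Of their 10 measured markers 8 were above 0, with a median of 0.50, Rgs13 at 2.41, a summed signal of 1774 and 2622, and Il25 at the floor on both arrays. Of the 10, 8 were above the floor on both arrays. Pou2f3 and Gfi1b were at the floor in wild-type RNA, so their ratios are lower bounds. Rgs13 had only 96 units in wild-type and 511 in knock-out-labelled RNA. The part of these cell types in the microvillus values was not tested.

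Other marker lists are given as values. Medians were -0.64 over 8 goblet cell genes, -0.48 over 5 Paneth cell genes, -0.44 over 10 enteroendocrine genes, -0.59 over 9 immune cell genes and 0.14 over 9 smooth muscle and fibroblast genes. The goblet cell genes ran from -3.34 for Muc2 to 0.02 for Spdef. The Paneth cell genes were split, so their median describes them poorly. Itln1 had -4.00, Lyz1 -3.26 and Pla2g2a -0.48, while Ang4 had 0.45 and Mmp7 0.50. With the hybridisation spikes made equal, the enterocyte, goblet, Paneth, enteroendocrine and immune medians turned positive. The crypt median, the tuft cell median and the smooth muscle and fibroblast median stayed above 0 in 10 of 10 alternatives. With the floor at the 75th percentile, they rested on 11 crypt genes (0.66), 4 tuft cell genes (0.39) and 4 smooth muscle and fibroblast genes (0.09).

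**Figure D4:**
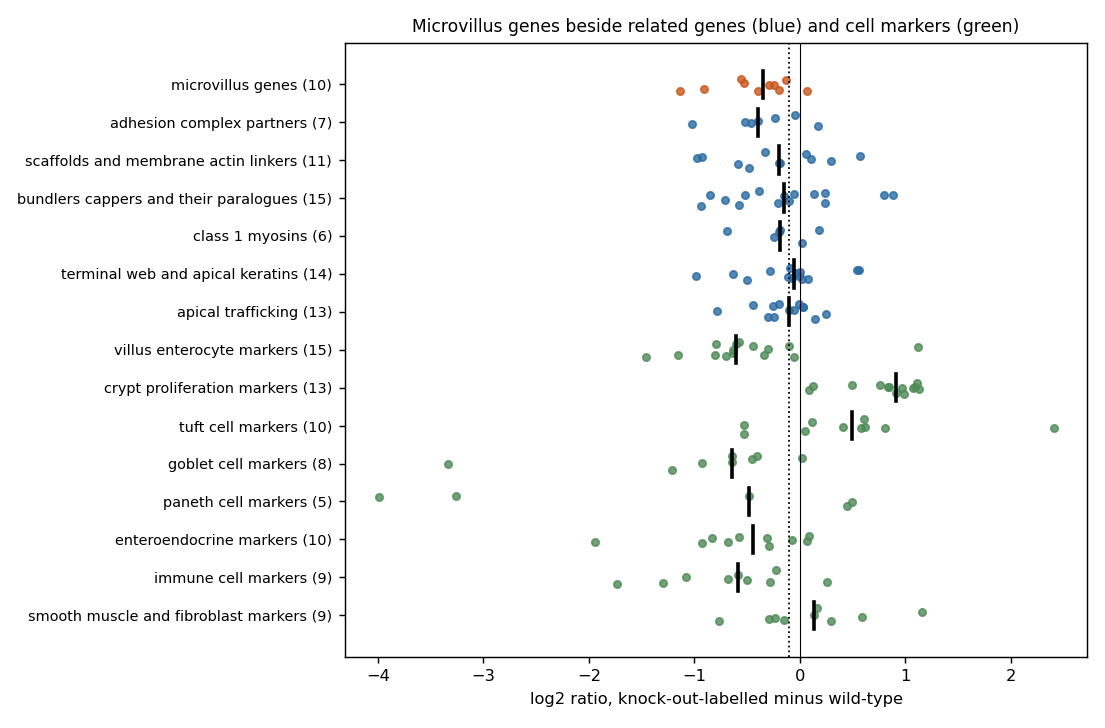
log2 ratio (knock-out-labelled minus wild-type) of each measured gene in the microvillus set (orange), 6 lists of related genes (blue) and 8 lists of cell type markers (green), with the number of measured genes in brackets, a black bar at each median, and a dotted line at the median of all measured genes, -0.11. At the scaling used here, unlike after quantile normalization, the microvillus median of -0.34 lies between the enterocyte marker median of -0.60 and the dotted line, and crypt proliferation markers lie wholly above 0, while signs of the blue and orange medians turn with the hybridisation spikes made equal.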

How the data were processed

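Per the submitters' processing notes, the authors deposited MAS5 signals, an intensity on a linear scale for each probe set. Software version, detection calls and genome build: not given in the sources used here. Both deposited columns had a trimmed mean (2 percent off each end) of 500, so they carry a global scaling. Leaving out 64 control probe sets, 34945 had 1 gene symbol, 932 had several (not used) and 9160 were unnamed. Symbols were updated by Entrez number through RefSeq's GRCm38.p6 table, which held 99.4% of them. The arrays were multiplied by 1.03 (wild-type) and 0.967 to equalise the 75th percentile of non-control probe sets. Lower signals were raised to a floor, the 50th percentile of both arrays together, before log2. The probe set with the highest mean log2 signal stood for a gene. No test was run, because 1 array per group leaves no replicate spread, and this limits the precision. The members, lists, rules and alternatives were chosen with earlier results of these data known. Named genes are all members and, of each related list, those past 2-fold or otherwise the highest and lowest, and those at the floor on 1 array. Any other gene of the related lists is marked as chosen after its value was seen. Alternatives were other scalings (as deposited, trimmed means, quantile, loess with a span of 0.3, labelling or hybridisation spikes made equal), other floors (25th and 75th percentile), another gene value (median of its probe sets, or suffix-free probe sets only) and other thresholds (1.5-fold, 3-fold). The code was tested on simulated data. Python 3.11.15, numpy 2.4.6, pandas 2.3.3 and statsmodels 0.14.6 were used.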

Additional observations from a re-analysis of the deposited data

How the results depend on the processing

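The median log2 ratio of the 10 genes, -0.34 as reported, was -0.25 for the values as deposited and for equal trimmed means, -0.089 after quantile normalization, -0.13 after loess, -0.017 with the 27 labelling spike probe sets made equal, and -0.46 when each gene took the median of its probe sets. It reversed to 0.44 with the 18 hybridisation spike probe sets made equal, where the median of all measured genes was 0.62. Relative to the median of all genes it stayed below 0 in 10 of 10 alternatives, from -0.42 to -0.07, but most of these could hardly alter that. A scaling by 1 factor per array moves members and other genes nearly alike, and the other floors left the members' ratios unchanged. Quantile normalization and loess could alter it, and the difference shrank to -0.076 and -0.073. In each of these 6 of the 10 members lay below the median of all genes. The labelling spikes moved the median of all genes to 0.20, and the other scalings to between -0.06 and -0.01. The count of members at least 2-fold lower was 0 with quantile normalization, loess, either set of spikes, probe sets without a suffix, or a threshold of 3-fold, and 2 with a threshold of 1.5-fold, which 16.3% of all genes passed. Of all genes, 4.01% were at least 2-fold lower with quantile normalization, 4.33% with loess, 2.52% and 0.98% with labelling and hybridisation spikes and 5.14% with suffix-free probe sets, so a count of 0 among 10 or fewer says nothing about the members. Cdhr5 was the single gene behind the reported count of 1. Among the related lists, the median of bundlers and cappers turned to 0.082 after quantile normalization. The terminal web and keratin median, -0.06 as reported, was 0.022 for the values as deposited, 0.020 for trimmed means, 0.12 after quantile normalization, 0.088 after loess, and 0.25 and 0.71 with labelling and hybridisation spikes equal. With the labelling spikes equal, the medians turned to 0.13 for scaffolds and linkers, 0.17 for bundlers and cappers, 0.14 for class 1 myosins and 0.23 for apical trafficking. With the hybridisation spikes equal, they turned to 0.39 for partners of the tip-link system, 0.58 for scaffolds and linkers, 0.63 for bundlers and cappers, 0.59 for class 1 myosins and 0.68 for apical trafficking. With the floor at the 75th percentile the median of class 1 myosins was 0.017. The cause was not tested for any of these, beyond the fewer genes with a suffix-free probe set (7 of 10 members). No paired analysis was possible because each pool has 1 array, and no array could be left out.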
